A study of Mus musculus with 2 samples.

Results

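Liver sinusoidal endothelial-like barcodes were taken from the 2 droplet libraries of the series by marker counts. A barcode was a member when it held at least 500 UMIs (unique molecular identifiers, each counting 1 captured RNA molecule), at least 3 of them from 8 sinusoidal markers, and at most 1 from 6 Kupffer cell markers. The sinusoidal markers were Stab2, Ptprb, Clec4g, Dnase1l3, Oit3, Gpr182, Kdr and Bmp2, and the Kupffer markers were Clec4f, Vsig4, Cd5l, C1qa, C1qb and C1qc. The members were thus chosen by their own marker counts. The rule found 251 of 341974 barcodes, 133 in the control library and 118 in the GS-KO library.

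Each library came from the liver of 1 mouse, so a group is 1 animal. Both mice carried Glul f/f, floxed alleles of the glutamine synthetase gene, and had no tumours. At 11 weeks of age the control mouse received AAV8-GFP and the GS-KO mouse AAV8-Cre, both adeno-associated viruses, and both livers were digested 2 weeks later by perfusion with collagenase II at 0.3 mg/mL. Hepatocytes and purified non-parenchymal cells went into a 10x Genomics 5-prime library. The labels name the assay as single-cell and as single-nucleus sequencing, and they give neither the promoter that drives Cre nor the cell types it reached.

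Sinusoidal endothelial cells line the liver's capillaries. They are fenestrated, lack a continuous basement membrane, and clear proteins, immune complexes and hyaluronan from portal blood through scavenger receptors such as Stab1, Stab2, Mrc1 and Fcgr2b. They also signal to the hepatocytes beside them: BMP2 and BMP6 induce hepcidin, the hormone of iron balance, and WNT2, WNT9B and R-spondin 3 from endothelium near the central vein maintain the pericentral programme to which Glul belongs.

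The libraries held 61635695 and 57973740 UMIs in 166037 control and 175937 GS-KO barcodes, with a median of 352 and 304 UMIs per barcode. Barcodes of at least 500 UMIs numbered 13692 and 11871. The libraries shared 8108 barcode sequences, among them those of 6 control and 4 GS-KO members, and 0 barcodes were members in both. In each library 4 reference sets were used. Background barcodes of at least 200 and under 300 UMIs (31304 and 70699) stand for the RNA that reaches droplets without such a cell. They were not cleared of barcodes that met the marker limits. The other sets were other large barcodes of at least 500 UMIs (13559 and 11753), and the stellate-like (352 and 252) and Kupffer-like (230 and 1139) barcodes among these. Levels are CPM, counts per 1000000 UMIs of a set. All intervals are exact 95% intervals and cover counting error only, not differences between mice, digestions or libraries, so no test between conditions was possible.

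Members made up 0.971% (0.814% to 1.15%, Clopper-Pearson) of large control barcodes and 0.994% (0.823% to 1.19%) of large GS-KO barcodes. They held 98242 and 86603 UMIs together, with a median of 631 UMIs and 424 genes in the control and 657 UMIs and 434 genes in the GS-KO library. Other large barcodes had a median of 663 and 672 UMIs, close to the members in depth. Because of this depth, 3 UMIs over all members of a library correspond to 30.5 and 34.6 CPM, the floor used for a gene with a count of 0, for which the two-sided exact Poisson interval reaches 37.5 and 42.6 CPM.

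The marker values that chose the members are given as a description. Just inside the threshold, 70 control and 64 GS-KO members held exactly 3 marker UMIs, and just outside it 146 and 116 large barcodes held 2. A sum of 5 or more was reached by 36 and 25 members, with a highest sum of 11 and 9. Stab2 gave 196 of the marker UMIs in the control and 100 in the GS-KO library, and Clec4g 55 and 103. At least 3 different markers were seen in 77 and 76 members, and 1 marker alone in 8 and 7. Barcodes that met the marker limits also existed under 500 UMIs: 382 control and 510 GS-KO barcodes of at least 300 and under 500 UMIs, or 0.337% and 0.624% of that size class, and 42 and 181 background barcodes, or 0.134% and 0.256%. More barcodes with this marker pattern thus lay under the size limit than over it.

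Endothelial genes that the rule did not use were higher in members than in background and in other large barcodes, in both libraries. A list of 18 further sinusoidal genes summed to 3624 CPM in control members, 420 CPM in background and 718 CPM in other large barcodes, which was 8.64-fold (7.72 to 9.63) and 5.06-fold (4.53 to 5.62) higher in members. In the GS-KO library the same sums were 3406, 361 and 561 CPM, or 9.46-fold (8.38 to 10.6) and 6.08-fold (5.38 to 6.83). Aass, which was lower in members than in other large barcodes, made up a large part of the list's sum in other large barcodes. Stellate-like barcodes held 1178 and 1117 CPM of this list, so members were 3.07-fold and 3.05-fold higher. Kupffer-like barcodes held 1127 and 1094 CPM, so members were 3.21-fold and 3.12-fold higher. A list of 30 general endothelial genes summed to 3196 CPM against 228 in background in the control library and to 2806 against 200 CPM in the GS-KO library, 14.01-fold (12.4 to 15.8) and 14.1-fold (12.3 to 16.0) higher. The general list was 2.64-fold and 2.56-fold higher than in stellate-like and 3.00-fold and 3.44-fold higher than in Kupffer-like barcodes. A list of 20 endothelial transcription factors was at 1.14-fold (0.912 to 1.40) and 0.800-fold (0.600 to 1.05) of stellate-like barcodes. Among sinusoidal genes with at least 10 UMIs in background, 16 of 16 control and 17 of 17 GS-KO genes had a positive log2 ratio, with medians of 4.06 and 3.97. Over all such genes 71.7% and 78.6% were positive, with medians of 0.76 and 1.19. Each sum had 0.5 counts added and many genes had few member UMIs, and the part of this in the medians was not tested.

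The level of these held-out genes followed the number of marker UMIs on both sides of the threshold. In the control library the sinusoidal list stood at 658 CPM in large barcodes with 0 marker UMIs, 1181 with 1 and 2155 with 2, then at 2892 with 3, 3848 with 4 and 4889 with 5 or more. In the GS-KO library the same steps were 432, 1049, 1919, 2686, 3465 and 5482 CPM. Barcodes just outside the rule therefore carried much of the same pattern. The smaller barcodes of at least 300 and under 500 UMIs that met the marker limits held 4785 and 6524 CPM. The 42 and 181 background barcodes that met them held 5366 and 6839 CPM. Both classes were above the members' 3624 and 3406 CPM. Within the members the list was lower in deeper barcodes: 4881 CPM under 700 UMIs against 2308 CPM at 1000 or more in the control library, and 4220 against 1669 CPM in the GS-KO library. Malat1, a nuclear RNA, differed the other way between those classes, at 5619 and 16273 CPM in the control and 6682 and 28078 CPM in the GS-KO library, and its part in the result was not tested.

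**Figure D1:**
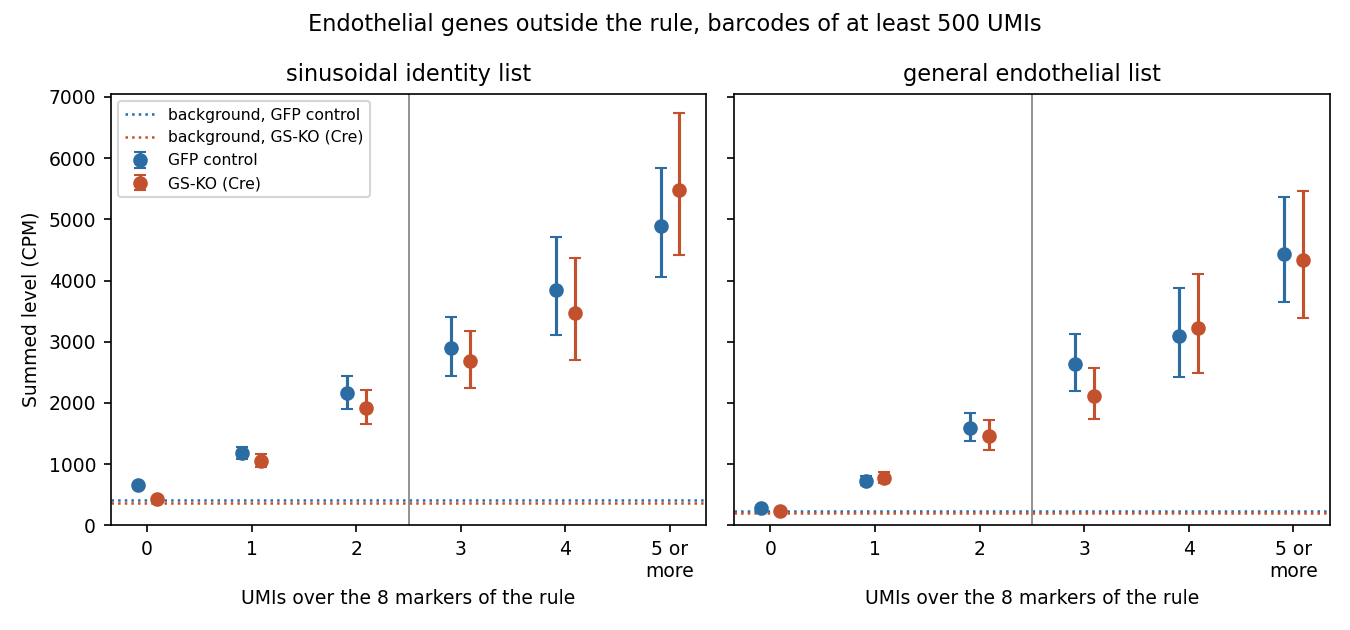
Summed level (CPM, y axis) of 18 sinusoidal and 30 general endothelial genes outside the rule in barcodes of at least 500 UMIs, by number of marker UMIs (x axis), with exact 95% Poisson intervals; the grey line marks the threshold and dotted lines the background barcodes. The sinusoidal list climbs from 658 to 4889 CPM in the control and from 432 to 5482 CPM in the GS-KO library.

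The receptors and endocytic proteins of the sinusoidal list were among the clearest. Fcgr2b, the inhibitory Fc receptor that takes up immune complexes, stood at 356 CPM in control and 439 CPM in GS-KO members, against 27.1 and 31.8 CPM in background. Mrc1, the mannose receptor, stood at 397 and 323 CPM against 17.7 and 30.8 CPM, though Kupffer-like barcodes held 293 and 417 CPM. Stab1, the partner scavenger receptor of Stab2, stood at 112 and 104 CPM against 8.05 and 7.22 CPM. Each of these receptors was at least 10-fold above background in both libraries. Ehd3, a membrane-trafficking ATPase, stood at 417 and 370 CPM against 23.7 and 26.8 CPM, but also at 284 and 148 CPM in stellate-like barcodes. The wider list of 20 endocytic and scavenger genes was 1.499-fold (1.34 to 1.66) and 1.43-fold (1.27 to 1.59) above background. In it Lamp1, a lysosomal membrane protein, stood at 285 and 242 CPM in members and 631 and 627 CPM in background. The water channel Aqp1 was at 224 and 289 CPM against 14.6 and 13.5 CPM. Aass, a lysine-degrading enzyme that was on the sinusoidal list, was at 275 and 162 CPM in members. It was higher in other large barcodes, at 494 and 254 CPM, a large part of the list's 718 and 561 CPM there. Lyve1, the hyaluronan receptor, had 2 UMIs in each library.

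Receptors for vascular growth factors and peptides differed widely in level. Flt4, the receptor for VEGF-C, stood at 132 CPM (13 UMIs) and 80.8 CPM (7 UMIs), against 3.29 and 3.83 CPM in background. Tek, the angiopoietin receptor, had 7 and 8 UMIs, and Flt1, a VEGF receptor, 7 and 4. Nrp1, a VEGF co-receptor, stood at 428 and 242 CPM in members but also at 118 and 110 CPM in other large barcodes. Calcrl and Ramp2, which together form the adrenomedullin receptor, stood at 285 and 208 CPM and at 132 and 208 CPM. Calcrl was as high in stellate-like barcodes, at 355 and 237 CPM, while Ramp2 stood there at 23.6 and 26.3 CPM. Eng, the endoglin co-receptor of BMP signalling, stood at 173 and 266 CPM against 13.4 and 13.8 CPM in background.

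Several genes often used to mark endothelium had few or 0 UMIs in members. S1pr1, a receptor for sphingosine phosphate, had 0 UMIs in either library's members, and with background at 28.3 and 24.8 CPM, under the floor of 3 UMIs, a difference was not detectable at this depth. Cdh5, the adherens junction cadherin, had 5 and 1 UMIs, Pecam1 9 and 10, Emcn 1 and 0, and Nos3 2 and 1. The 16 large vessel and lymphatic genes were 2.53-fold (1.73 to 3.48) and 4.46-fold (3.37 to 5.72) above background in sum, with 12 and 11 of them at 0, among these Vwf, Sele, Selp and Cd34 in both libraries. Among the transcription factors, Erg had 6 and 4 UMIs and Gata4, which specifies the sinusoidal state, 8 and 10. Maf was at 224 and 277 CPM against 35.9 and 37.2 CPM in background, and Tcf4 at 183 and 150 CPM against 18.4 and 20.2 CPM. Maf was also at 318 and 216 CPM in Kupffer-like and Tcf4 at 236 and 300 CPM in stellate-like barcodes.

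Counted barcode by barcode, endothelial RNA was spread over most members. Each barcode was thinned to 500 UMIs, which left out no member. After thinning, 90.2% (83.9% to 94.7%) of control and 90.7% (83.9% to 95.3%) of GS-KO members held a UMI of the sinusoidal or general endothelial lists. The share was 34.3% and 31.3% in other large barcodes, 64.8% and 59.9% in stellate-like and 56.1% and 58.5% in Kupffer-like barcodes. Without thinning the shares were 96.2% and 95.8% of members against 44.0% and 42.0% of other large barcodes. Single genes were sparse, with Adam23 in 21.1% and 17.8% of thinned members against 0.715% and 0.961% of other large barcodes. The median member held 2 UMIs of the sinusoidal list, and the highest 10 in the control and 11 in the GS-KO library.

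Over the whole transcriptome, genes at least 2-fold higher in members than in background were 21.5% of the 1550 control and 22.6% of the 1388 GS-KO genes with a mean of at least 100 CPM over the sets compared. Genes at least 2-fold lower were 2.13% and 3.24%. Against other large barcodes, which share the members' depth, 7.52% of 1716 and 5.23% of 1683 genes were at least 2-fold higher and 1.63% and 2.73% lower. The comparison with background therefore mixes endothelial genes with genes of large barcodes at large: Malat1 stood at 8856 and 12182 CPM in members, at 1797 and 1181 CPM in background, and at 10375 and 23134 CPM in other large barcodes.

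Leading genes were ranked by the smaller of the libraries' log2 ratios, 25 against background and 25 against other large barcodes. The lists shared 13 genes and held 37 in all. Of these, 14 were on endothelial lists, beside 1.90% of the 1157 genes that could be ranked. The endothelial lists counted were the sinusoidal, general endothelial, transcription factor, endothelial signal, and VEGF, angiopoietin and ephrin lists. Fbxl7, an F-box protein of ubiquitin ligases, led both lists at 356 CPM in control and 312 CPM in GS-KO members against 5.10 and 5.30 CPM in other large barcodes, 70.2-fold (44.1 to 110) and 59.3-fold (35.3 to 96.2) higher. Adgrl4, an adhesion receptor of endothelium also called ELTD1, followed at 295 and 266 CPM against 8.99 and 7.95 CPM, 33.2-fold (20.8 to 50.4) and 33.9-fold (19.9 to 54.1) higher. Adam23, a catalytically inactive member of the ADAM family on the sinusoidal list, stood at 550 and 381 CPM against 13.3 and 17.1 CPM. These ratios chose the genes and are a description.

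The other leading genes against large barcodes included F8, which encodes coagulation factor VIII and is known to be made by liver endothelium, at 254 CPM in both libraries against 8.19 and 16.7 CPM. Plxnc1 and Sema6a, of the plexin and semaphorin families, stood at 204 and 312 CPM and at 132 and 185 CPM, against at most 13.1 CPM in other large barcodes. Cemip2, a cell-surface protein of hyaluronan breakdown, stood at 387 and 162 CPM against 12.8 and 17.1 CPM. Dab2, a clathrin adaptor, stood at 214 and 150 CPM but also at 166 and 61.4 CPM in Kupffer-like barcodes. Of the 37 genes, 18 were at least 2-fold higher in members than in each of background, other large, stellate-like and Kupffer-like barcodes in both libraries, a count that their choice against background or other large barcodes fixes in part. Of all tested genes, 4.77% and 4.29% were at least 2-fold higher and 6.79% and 7.33% lower than in stellate-like barcodes, and 7.19% and 5.64% higher and 8.31% and 10.2% lower than in Kupffer-like barcodes.

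**Figure D2:**
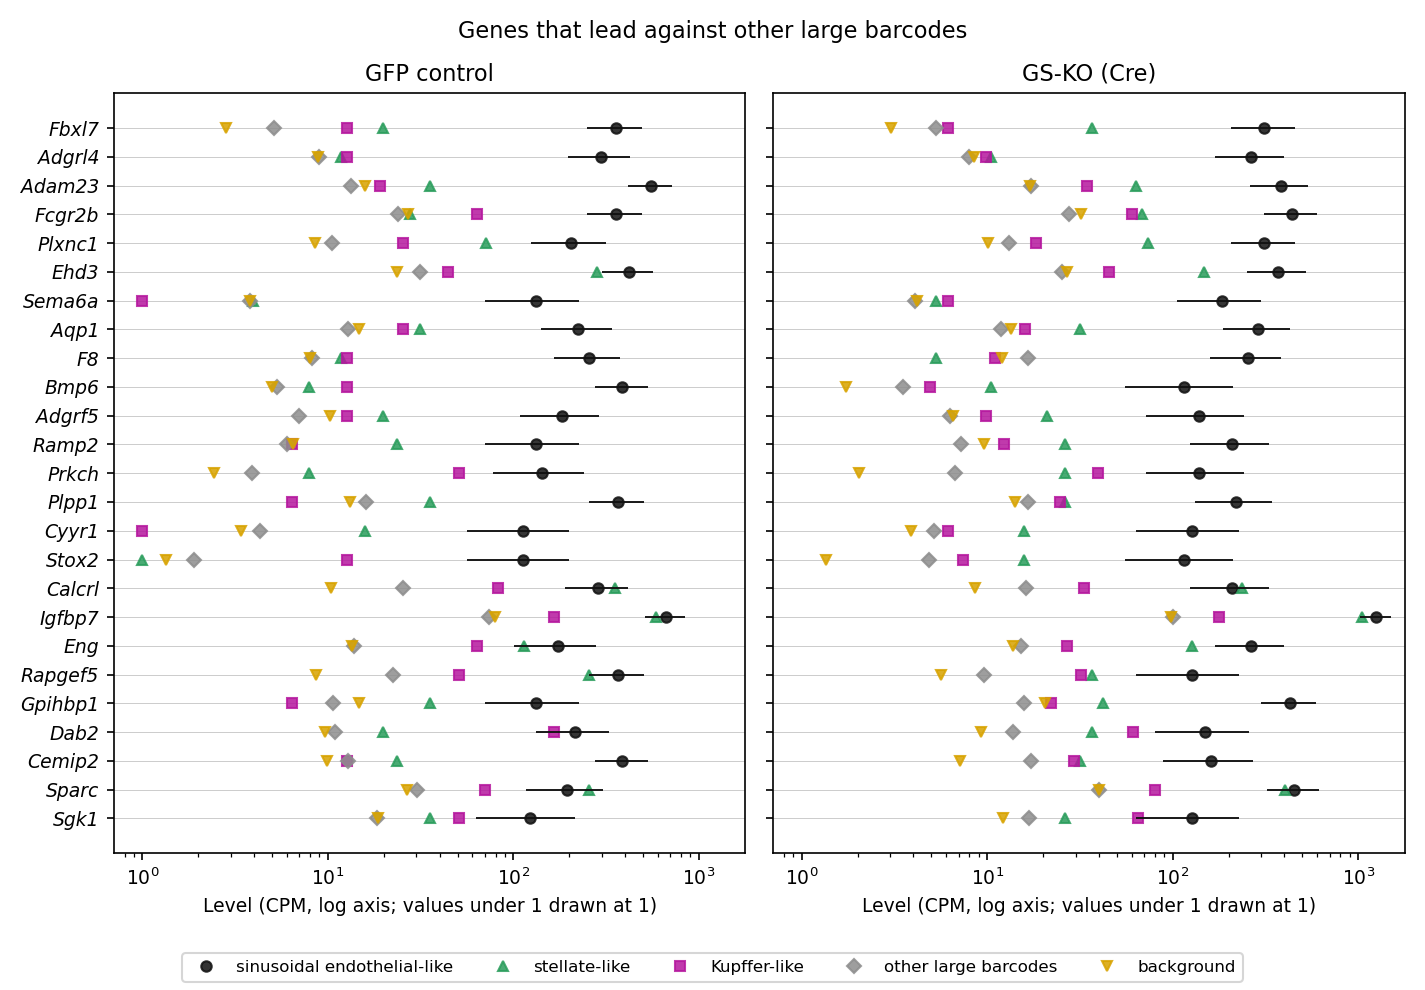
Level (CPM, log x axis) of the 25 genes that lead against other large barcodes (rows), with members as black points with exact 95% Poisson intervals and the 4 reference sets as coloured points. Fbxl7, Adgrl4 and Adam23 stand clear of every reference set in both libraries, while Calcrl, Igfbp7 and Sparc reach similar levels in stellate-like barcodes.

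The promoters of the 3 genes that lead against other large barcodes are shown because these genes are high together in the members. Each run covers the 250 bases before the RefSeq gene start in build GRCm38.p6, written 5′ to 3′ on the gene's strand, with capitals for the letters AGGAAG or its reverse complement CTTCCT, a core that ETS factors of endothelium can bind. The windows are chr15:26895565-26895814 on the minus strand for Fbxl7, chr3:151437632-151437881 on the plus strand for Adgrl4, and chr1:63445641-63445890 on the plus strand for Adam23.
Fbxl7: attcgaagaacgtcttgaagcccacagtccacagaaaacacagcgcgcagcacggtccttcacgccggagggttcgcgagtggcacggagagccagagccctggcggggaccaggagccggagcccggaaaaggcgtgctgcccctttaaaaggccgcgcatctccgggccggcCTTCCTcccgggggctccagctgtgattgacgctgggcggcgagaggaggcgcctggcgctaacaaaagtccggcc
Adgrl4: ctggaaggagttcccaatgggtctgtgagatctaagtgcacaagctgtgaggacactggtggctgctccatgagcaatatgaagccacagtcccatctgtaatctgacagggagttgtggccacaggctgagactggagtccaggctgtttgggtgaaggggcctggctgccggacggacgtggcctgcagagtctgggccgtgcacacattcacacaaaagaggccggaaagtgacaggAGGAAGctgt
Adam23: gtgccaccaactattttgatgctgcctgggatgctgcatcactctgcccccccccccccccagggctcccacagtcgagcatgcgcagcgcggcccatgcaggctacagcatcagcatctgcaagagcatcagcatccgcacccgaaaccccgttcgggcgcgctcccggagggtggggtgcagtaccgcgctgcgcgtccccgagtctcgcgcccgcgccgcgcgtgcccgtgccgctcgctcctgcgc
Fbxl7 and Adgrl4 held 1 match each and Adam23 held 0. Of the 37 leading genes 28 had a promoter in the RefSeq table, and 13 of these (46.4%) held the letters on either strand in the 250 bases, beside 7879 of 27025 (29.2%) of all promoters in the table. A match is a run of letters and not a shown binding site.

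Genes that led against background alone were mostly not particular to endothelium. Prkg1, the cGMP-dependent kinase, stood at 896 and 381 CPM in members against 24.3 and 12.5 CPM in background, yet at 3941 and 2081 CPM in stellate-like barcodes. Rbms3 showed the same order, with 234 and 196 CPM in members and over 1000 CPM in stellate-like barcodes of both libraries. Wwox, Magi1, Bcas3 and Fbxl17 were within 1.5-fold of other large barcodes in both libraries. Dlc1, a GTPase-activating protein, stood at 662 and 716 CPM, 5.55-fold (4.23 to 7.08) above other large barcodes in the control but 1.66-fold (1.26 to 2.12) in the GS-KO library.

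RNA of other cell types was present in the members. The 16 hepatocyte genes summed to 84658 and 73104 CPM, 0.721 and 0.643 of the background level and 0.899 and 1.01 of the level in other large barcodes, and each member held Alb. At the background barcodes' mean size, free RNA would account for 35.5% and 35.8% of a member's UMIs. With that amount taken off, 4224 of 8317 control and 2810 of 6331 GS-KO hepatocyte UMIs were left, and their source was not tested. The 20 stellate and fibroblast genes summed to 1639 and 1975 CPM, 4.58-fold (3.87 to 5.35) and 4.61-fold (3.92 to 5.35) above background, with 7 and 3 genes at 0. They stood at 8228 and 8367 CPM in stellate-like barcodes. Dcn, a matrix proteoglycan of stellate cells and fibroblasts, stood at 611 and 716 CPM in members against 140 and 158 CPM in background, in 29 and 27 barcodes. At least 2 UMIs of 8 stellate markers were held by 18.8% and 17.8% of members against 4.65% and 4.09% of other large barcodes. Among members with fewer stellate UMIs the sinusoidal list was at 3535 and 3065 CPM, so the endothelial genes were high without the stellate-positive barcodes.

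Macrophage genes outside the rule were near background, at 580 against 476 CPM in the control (1.23-fold, 0.921 to 1.58) and 912 against 757 CPM in the GS-KO library (1.21-fold, 0.954 to 1.503), with 10 and 5 of 20 genes at 0. A UMI of the 6 Kupffer markers was held by 3 control and 21 GS-KO members. Lists for T and NK cells summed to 30.5 and 23.1 CPM and for bile duct cells to 81.4 and 127 CPM, and 8 mesothelial genes were at 0. Immunoglobulin RNA stood out in 1 control member, which held 25 Igkc, 13 Jchain and 28 Slpi UMIs beside 3 marker UMIs. In the plot of list ratios the general endothelial and sinusoidal lists were highest in both libraries and against both references. The stellate list, at 1.70 and 2.00 over other large barcodes, stood above the endothelial transcription factors at 1.27 and 0.68.

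**Figure D3:**
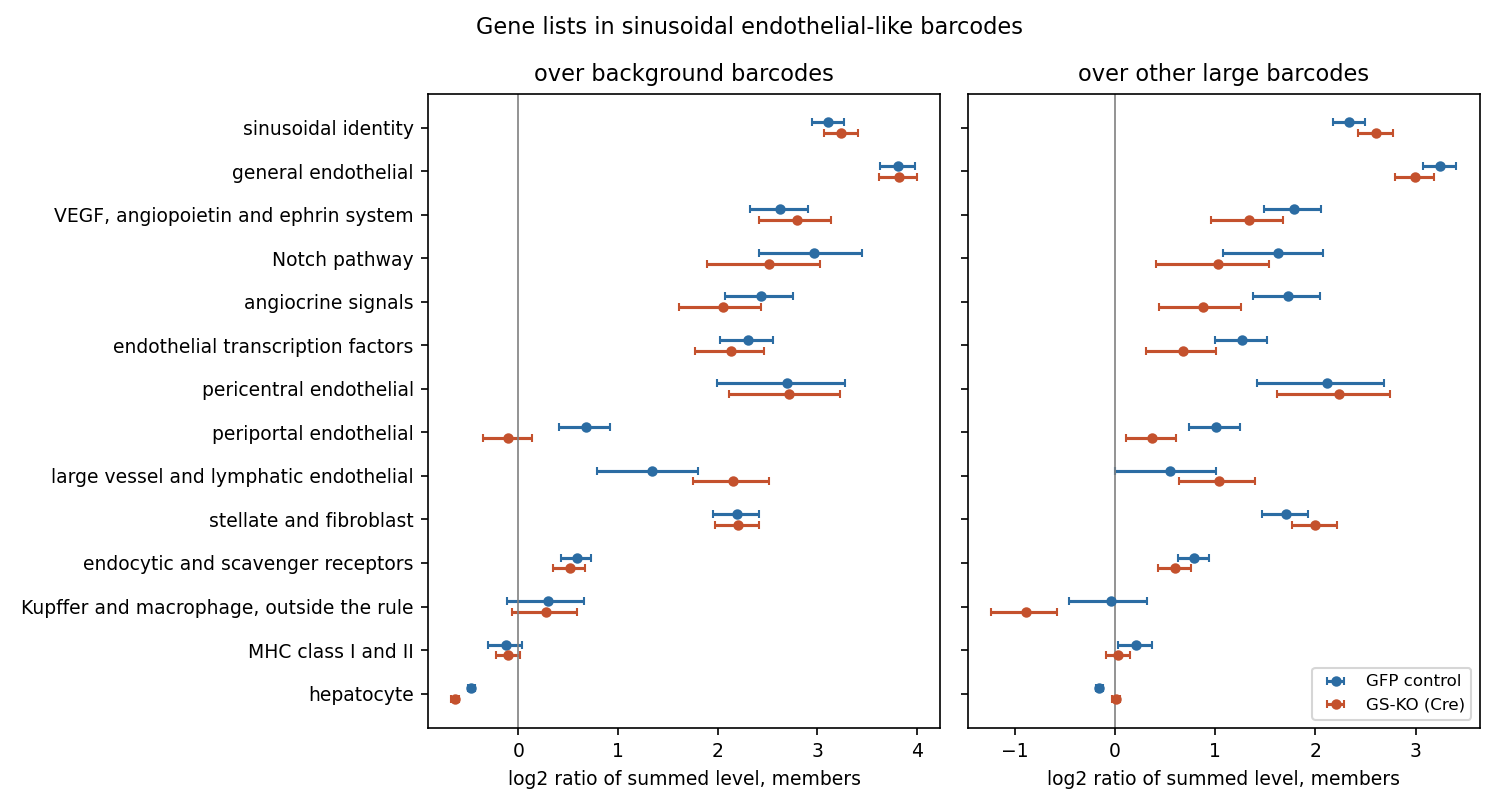
log2 ratio (x axis) of the summed level of 14 gene lists (rows) in members over background barcodes (left) and over other large barcodes (right), with exact 95% intervals for counting error, in the control (blue) and GS-KO (red) library. The sinusoidal list is at 3.11 and 3.24 over background and at 2.34 and 2.60 over other large barcodes.

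The 18 genes for signals from endothelium summed to 794 and 600 CPM, 5.395-fold (4.21 to 6.75) and 4.14-fold (3.05 to 5.39) above background, with 9 and 7 genes at 0. Stellate-like barcodes held more of this list, at 1379 and 1112 CPM. Members stood at 0.579-fold (0.444 to 0.738) and 0.544-fold (0.391 to 0.735) of that level. Among the 18 genes Bmp6 had the most UMIs in control members. Control members held 38 Bmp6 UMIs in 31 of 133 barcodes, or 387 CPM, and other large barcodes 5.30 CPM. Cxcl12, a chemokine, stood at 234 and 162 CPM but also at 160 and 219 CPM in other large barcodes. Hgf stood at 91.6 and 185 CPM in members and at 737 and 432 CPM in stellate-like barcodes. Wnt2 had 2 UMIs in each library, Rspo3 1 and 2, and Wnt9b 1 and 0, so the pericentral Wnt and R-spondin sources were not measurable at this depth. Kit, a receptor of endothelium near the central vein, had 5 and 9 UMIs, or 50.9 and 104 CPM against 1.10 and 1.35 CPM in background. The 14 pericentral endothelial genes, Kit among them, were 6.48-fold (3.97 to 9.72) and 6.59-fold (4.32 to 9.37) above background in sum, but at 234 and 335 CPM they stood below the 583 and 559 CPM of stellate-like barcodes. The 14 periportal ones were 1.60-fold (1.33 to 1.89) and 0.932-fold (0.779 to 1.10) of background in sum. The medians over genes with at least 10 background UMIs had the other order, a log2 ratio of 2.07 and 3.21 for pericentral and 3.58 and 3.38 for periportal genes, so the lists gave no single zonal direction.

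The comparison of the GS-KO with the control library asks how these cells differed after Glul deletion. Glul, the targeted gene, at chr1:153899944-153909723 on the plus strand (GRCm38, GENCODE), had 11 UMIs in control and 5 in GS-KO members, 112 and 57.7 CPM, a log2 ratio of -0.88 (-2.83 to 0.69). In background barcodes, whose RNA is mostly that of hepatocytes, it stood at 110 and 9.11 CPM. Of 1684 genes with at least 20 member UMIs and a mean of at least 100 CPM, 138 (8.19%) were at least 2-fold higher and 169 (10.0%) at least 2-fold lower in GS-KO members. In background barcodes 6.21% of 1223 genes were higher and 4.82% lower, and in other large barcodes 9.06% of 1678 and 5.54%. With 1 mouse per group, the virus, the mouse, the digestion and the library cannot be told apart.

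The summed sinusoidal and general endothelial lists differed between the libraries by less than counting error, while smaller endothelial lists did differ by more. The summed sinusoidal list had a log2 ratio of -0.09 (-0.32 to 0.14) and the general endothelial list -0.19 (-0.44 to 0.06). The endothelial transcription factors were lower in GS-KO members, at -0.62 (-1.06 to -0.20). The VEGF, angiopoietin and ephrin list was also lower, at -0.47 (-0.93 to -0.02). These lists stood at -0.46 and -0.64 in background, and at -0.03 (-0.09 to 0.02) and -0.03 (-0.10 to 0.05) in other large barcodes. The large vessel and lymphatic list was higher, at 0.95 (0.33 to 1.60) in members, 0.13 in background and 0.46 in other large barcodes. It rested on 35 control and 60 GS-KO member UMIs, with 12 and 11 of its 16 genes at 0. Of the 25 genes of the sinusoidal and general lists that were tested, 1 was at least 2-fold higher (Fam167b) and 3 at least 2-fold lower (Meis2, Ldb2 and Arhgap31), all named after their values were seen, beside 8.19% and 10.0% of all genes. Meis2, a homeobox factor of the sinusoidal list, stood at 336 CPM in control and 115 CPM in GS-KO members (log2 ratio -1.49, -2.73 to -0.49), with 5.49 and 5.34 CPM in background. Ldb2, a cofactor of LIM-domain transcription factors, stood at 316 and 104 CPM (-1.55, -2.86 to -0.50) in members and at 5.85 and 3.77 CPM in background.

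Bmp6 was lower in GS-KO members. The gene lies at chr13:38345107-38500302 on the plus strand, and its UMIs numbered 38 in 31 of 133 control barcodes and 10 in 10 of 118 GS-KO barcodes, 387 and 115 CPM. The log2 ratio was -1.69 (-2.91 to -0.71), or 3.23-fold lower. After thinning to 500 UMIs, 19.5% (13.2% to 27.3%) of control and 5.93% (2.42% to 11.8%) of GS-KO members held a Bmp6 UMI, intervals that count barcodes of 1 mouse each. In background barcodes Bmp6 was at 5.00 and 1.72 CPM (log2 ratio -1.53, -2.25 to -0.83), and in other large barcodes at 5.30 and 3.53 CPM (-0.58, -1.26 to 0.08). With a minimum of 700 UMIs the members' log2 ratio was -1.52 (-3.70 to 0.03), an interval that includes 0. Bmp2, a marker of the rule, had 42 and 25 UMIs, so its values are a description.

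Genes that BMP signalling is known to induce are given beside Bmp6 without a link between them. Hamp, which encodes hepcidin in hepatocytes, stood at 5596 CPM in control and 1656 CPM in GS-KO background barcodes, and at 3512 and 1270 CPM in members. Id1 stood at 59.3 and 8.51 CPM in background, Smad7 at 31.0 and 5.01 CPM, and Smad9 at 29.9 and 2.91 CPM. In members Id1 had 7 and 3 UMIs, too few for a comparison. Id3, of the same family, went the other way in members, at 193 and 404 CPM (log2 ratio 1.05, 0.22 to 1.95), while in background it stood at 122 and 98.5 CPM.

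Some single genes were higher in GS-KO members, and they are named with their ratios known. Gpihbp1, which carries lipoprotein lipase across capillary endothelium, had 13 and 37 UMIs, 132 and 427 CPM (log2 ratio 1.66, 0.75 to 2.73), with 14.6 and 20.5 CPM in background. Igfbp7, a secreted matrix protein, had 65 and 108 UMIs in 49 and 63 barcodes, 662 and 1247 CPM (0.91, 0.46 to 1.38), and Sparc 193 and 450 CPM (1.197, 0.39 to 2.09). Both also stood high in stellate-like barcodes, Igfbp7 at 587 and 1043 CPM and Sparc at 256 and 400 CPM, higher in the GS-KO library there too. Ctsl, the lysosomal protease cathepsin L, stood at 183 and 554 CPM (1.57, 0.79 to 2.47) in members and at 268 and 304 CPM in background. Ly6a, a surface protein of many endothelial cells, stood at 71.3 and 266 CPM (1.83, 0.63 to 3.36), with 10.9 and 25.3 CPM in background.

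The tested endothelial genes were also split by the length they span, a split chosen after the values were seen. Of the 25 tested genes of the sinusoidal and general endothelial lists, those under 50 kb long numbered 10, with 6 higher and 4 lower in the GS-KO library and a summed log2 ratio of 0.22 (-0.07 to 0.51). Those of 50 kb or more numbered 15, with 2 higher and 13 lower and a summed ratio of -0.50 (-0.74 to -0.27). Meis2 and Ldb2 are among the long genes. Over all 1684 tested genes the split was weaker, with 451 higher and 500 lower short genes and 298 higher and 435 lower long ones, and median log2 ratios of -0.05 and -0.15. In other large barcodes the medians of these 1684 genes ran the other way, at -0.23 for short and 0.10 for long genes. The 25 endothelial genes had medians of 0.30 for short and -0.43 for long genes in members. Their medians were 0.23 and -0.06 in other large barcodes and 0.11 and -0.05 in background. Malat1 was at 8856 and 12182 CPM in members, and the part of nuclear RNA in these ratios was not tested.

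Interferon-response genes were higher in GS-KO members than in control members. Of 24 listed genes, the 22 in the files summed to 448 and 1570 CPM, a log2 ratio of 1.80 (1.31 to 2.33), beside 1.11 in background and 1.21 in other large barcodes. Against their own background barcodes, control members stood at 0.800-fold (0.574 to 1.06) and GS-KO members at 1.29-fold (1.08 to 1.52) in sum. Of the listed genes with at least 10 background UMIs, 12 of 15 in the control and 16 of 22 in the GS-KO library had a positive log2 ratio. Their medians were 0.35 and 1.36, beside 0.76 and 1.19 over all such genes. Iigp1, an interferon-induced GTPase, stood at 183 and 462 CPM in members against 352 and 497 CPM in background. It was a large part of the list's background sums of 566 and 1221 CPM.

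Genes of antigen presentation and the acute phase were higher in the GS-KO library both in members and in background. The MHC list summed to 2972 and 6697 CPM in members, a log2 ratio of 1.17 (0.97 to 1.38), and differed by 1.14 in background. Cd74, the invariant chain of MHC class II, stood at 50.9 and 520 CPM in members, 26.1 and 729 CPM in background, and 1591 and 8072 CPM in Kupffer-like barcodes. Among the 12 genes with the highest ratios, Lcn2, Saa1, Saa2, Saa3 and Orm2 are acute-phase genes of the liver. Saa1 stood at 40.7 and 3002 CPM in members (6.04, 4.83 to 8.09) and at 76.0 and 5089 CPM in background. Lcn2 had 1 and 142 UMIs in members (6.75, 4.83 to 12.65), and 7.19 and 2251 CPM in background. In the plot of ratios the acute-phase genes had high ratios on both axes, and Lcn2, at 8.28 in background, lay below the line of equal ratios.

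**Figure D4:**
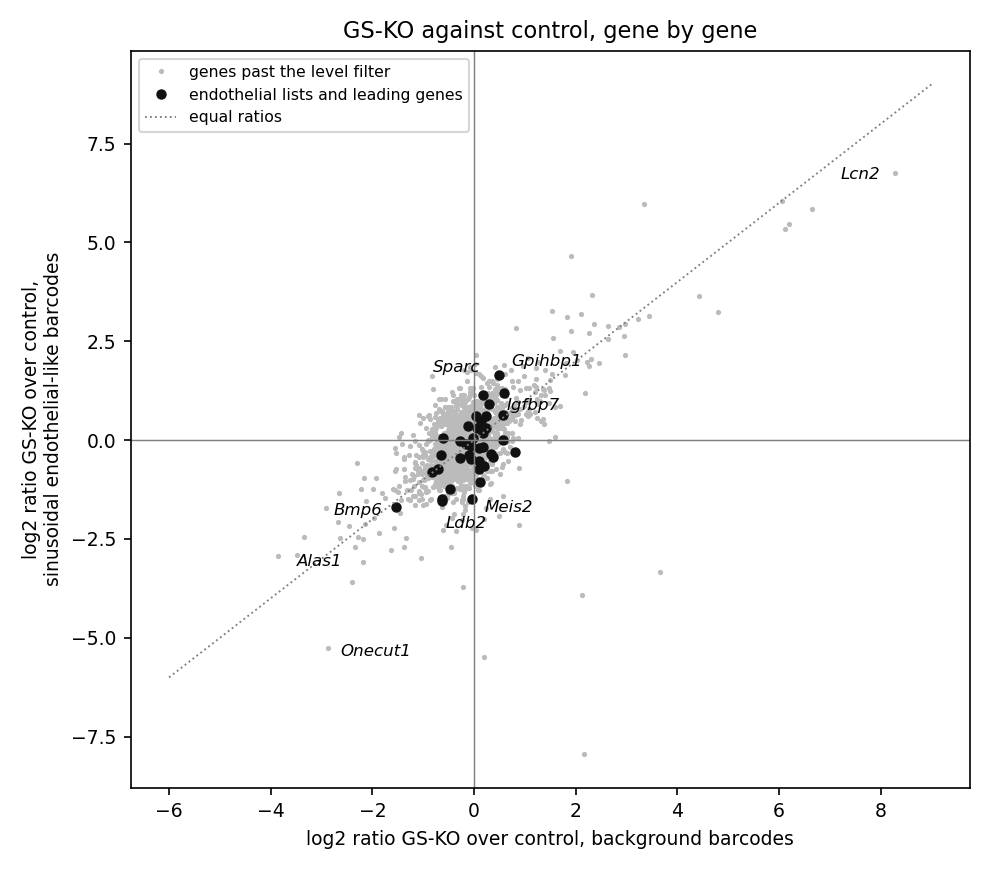
log2 ratio of GS-KO over control in background barcodes (x axis) and in sinusoidal endothelial-like barcodes (y axis) for genes past the level filter (grey) and for endothelial lists and leading genes (black); the dotted line marks equal ratios. Bmp6 lies close to that line at -1.53 and -1.69, while Meis2 and Gpihbp1 lie off it.

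Of the 12 genes with the lowest ratios, all but Slpi also had a negative ratio in background, from -0.22 for Tnik to -3.86 for Tox. The median over the 1223 genes compared in background was itself negative, at -0.17, so Tnik lay near the median there. Onecut1, a hepatocyte transcription factor, had 21 UMIs in control and 0 in GS-KO members. With the 0 set to the floor of 3 UMIs, it was 6.17-fold lower, a value that leaves out counting error. In background Onecut1 stood at 88.7 and 12.02 CPM. Alas1, the first enzyme of haem synthesis, stood at 1608 and 185 CPM (log2 ratio -3.08, -3.96 to -2.38) in members and at 1451 and 320 CPM in background. Tnik, a kinase of the Wnt and JNK routes, was different: it had 22 UMIs in 20 control members and 1 in GS-KO members, 224 and 11.5 CPM (-3.72, -9.64 to -1.65), while background held 3.17 and 2.75 CPM and other large barcodes 14.5 and 16.0 CPM. Slpi, a protease inhibitor, also ranked here, with all 28 control UMIs in the 1 Igkc-rich barcode.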

How the data were processed

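The authors deposited 1 matrix of raw UMI counts per library, whole numbers for 32285 genes, per the file headers written by Cell Ranger 8.0.0, with mm10 named as the genome in the submitters' processing notes. The criterion by which barcodes entered the matrices was not found in the labels or headers. Counts of 40 rows that share a gene symbol were summed. The members, the 31 gene lists and the comparison sets were chosen with earlier results of these data known. The 14 genes of the rule were left out of all counts, medians and named genes. Sums over barcodes were scaled to CPM, ratios had 0.5 counts added, and intervals were exact Poisson, conditional binomial or Clopper-Pearson. Stellate-like and Kupffer-like barcodes held at least 3 UMIs of 8 or 6 markers and at most 1 of the sinusoidal markers. No doublet caller was run, so doublets are untreated.

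Leading genes needed a mean of 100 CPM and 10 UMIs in members of each library, and the 25 largest of the smaller log2 ratio of CPM plus 10 were taken. For GS-KO against control, the 12 highest and 12 lowest genes with at least 20 UMIs were taken. Clone-named, mitochondrial, ribosomal, immunoglobulin and Y-linked genes were left out of naming. List genes and Glul are named for their role, with their values known. Some results are not reported here. Of the 418 list entries 2 were not among the files' gene names. The ratio code was tested on simulated data. Alternatives were other size and marker limits, other backgrounds, scaling, thinning and removal of free RNA, and 2 were added after seeing the data: leaving out the largest member of each library, and members of 3 or more Jchain and Igkc UMIs. The software was matplotlib 3.10.9, scipy 1.17.1, numpy 2.4.6 and pandas 2.3.3 under Python 3.11.15. Positions are from GENCODE on GRCm38, the build called mm10.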

Additional observations from a re-analysis of the deposited data

Results flagged for a closer look

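Igkc, Jchain, Slpi and Alb stood on opposite sides of the other barcodes in the control and GS-KO libraries, and the difference between the libraries was not tested. Against other large barcodes, Igkc had a log2 ratio of 2.19 in control and -2.85 in GS-KO members, Jchain 1.26 and -5.58, and Slpi 3.36 and -2.62. All 25 Igkc, 13 Jchain and 28 Slpi UMIs of the control members were in 1 barcode. Alb, which encodes albumin, differed by -0.10 in control and 0.15 in GS-KO members against other large barcodes.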

How the results depend on the processing

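At a minimum of 700 UMIs the members numbered 48 and 46, and at 1000 UMIs 18 and 13. With at least 2 marker UMIs they numbered 279 and 234, with at least 5 they numbered 36 and 25, and after thinning to 500 UMIs 88 and 70, in the control and GS-KO library. The log2 ratio of the sinusoidal list over background, 3.11 and 3.24, was 2.51 and 2.87 at 700 UMIs, 2.47 and 2.23 at 1000 UMIs, 2.75 and 2.86 with 2 marker UMIs and 3.55 and 3.93 with 5, and 3.02 in the GS-KO library over barcodes of at least 300 and under 400 UMIs. Over other large barcodes, 2.34 and 2.60, it was 1.55 and 2.28, 1.23 and 1.69, 2.01 and 2.26, and 2.74 and 3.25 under the same limits. Between the libraries it was -0.46 at 1000 UMIs and 0.17 with 5 marker UMIs, and the 138 higher and 169 lower genes became 89 and 98 at 700 UMIs, 37 and 46 at 1000 UMIs and 31 and 33 with 5 marker UMIs, where fewer barcodes were left. Over the alternatives that moved them by over 1.5 times, genes at least 2-fold higher than background went from 333 to 704 or 878 in the control and from 314 to between 497 and 1019 in the GS-KO library, and lower ones from 33 to between 15 and 259 and from 45 to between 84 and 256. Against other large barcodes higher genes went from 129 to between 67 and 381 and from 88 to between 32 and 487, and lower ones from 28 to between 1 and 127 and from 46 to between 8 and 147, with 70 when the deepest member of each library was left out. Slpi changed sign to 1.32 with 2 marker UMIs, 1.72 without stellate-positive barcodes and 2.49 without the Igkc-rich barcode, and Ankrd55 to 0.56 with 5 marker UMIs. The cause of the other changes was not tested. In all, 757 of 876 values under alternatives stayed within their interval or within 1.5 times their count, 115 moved and 4 changed sign. Bmp6 kept a negative ratio in each alternative, from -2.13 at 1000 UMIs to -1.47 with 2 marker UMIs. No paired analysis was possible because each group is 1 library of 1 mouse.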

Other observations

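Clock-output and immediate early genes, which no comparison above describes, also stood apart between the libraries. The 18 core clock and output genes summed to 977 CPM in control and 485 CPM in GS-KO members, a log2 ratio of -1.001 (-1.57 to -0.47), beside -1.63 in background and -0.71 in other large barcodes. Bhlhe40, a clock repressor, stood at 214 and 46.2 CPM in members (-2.07, -4.21 to -0.64) and at 175 and 27.5 CPM in background, and Dbp, a clock output factor, had 9 and 1 UMIs in members and 147 and 2.16 CPM in background. The labels give no hour of sampling. The 16 immediate early genes differed by 0.60 (0.20 to 1.00) in members, 0.24 in background and 1.26 in other large barcodes. Zfp36, which binds and destabilises inflammatory mRNA, stood at 61.1 and 219 CPM in members (1.77, 0.46 to 3.46) and at 163 and 156 CPM in background.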
